A study of Mus musculus with 10 samples.

Results

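Meiotic cohesin was followed through the transcripts of its 4 germline subunit genes, Stag3, Rec8, Smc1b and Rad21l, in mouse embryonic stem cells that carried wild-type ANKRD11 or its Y347A mutation. The genes were picked by name from a table of 55401 genes, and all 4 were found there. They were chosen because Stag3, Rec8 and Smc1b were already known to differ between the genotypes in these libraries, so that difference is described below and not tested. Stag3 and Rec8 transcripts were 2.04-fold and 1.90-fold as abundant in Y347A as in wild-type cells, Smc1b was 2.21-fold higher in wild-type cells, and Rad21l was listed at 0 in 9 of 10 libraries.

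Cohesin is a ring of SMC proteins closed by a kleisin subunit, with a STAG protein bound to the kleisin, and it holds sister chromatids together and folds chromatin into loops. Germ cells that enter meiosis make variant subunits: SMC1-beta (Smc1b) in place of SMC1A, REC8 or RAD21L in place of the kleisin RAD21, and STAG3 in place of STAG1 or STAG2. The meiotic complexes build the chromosome axis on which homologous chromosomes pair and recombine. In body cells and stem cells many germline genes are held down by DNA methylation and by a Polycomb complex, PRC1.6, which the factors E2F6 and MGA-MAX bring to promoters.

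Poly(A) RNA of E14 cells, an embryonic stem cell line, was sequenced from 4 libraries of untreated wild-type cells (sets 1 and 2) and from 6 libraries of cells edited with CRISPR/Cas9 to the ANKRD11 Y347A mutation (sets 1, 2 and 3), with 2 libraries per set. ANKRD11 is a nuclear regulator of transcription, and its binding to cohesin is the subject of the series. What a set stands for (1 clone, or separate cultures) is not in the labels, and the spread behind each p-value may thus be technical. Values are TPM (transcript abundance divided by transcript length and scaled to the same total in each library), so levels of different genes can be set side by side, and depth is unknown. Group levels are means ± SD over set means (n = 2 wild-type and n = 3 Y347A sets), and log2 fold changes (± SE) are Y347A minus wild type after adding 1 to each TPM, a scale that understates changes at low levels.

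In the limma fit of set means over the 12797 genes whose mean reached 1 TPM, 892 genes were called higher and 1350 lower in Y347A at an adjusted p under 0.05. That split was 1096 and 1064 after median-of-ratios rescaling and 1097 and 1033 after quantile normalization. All 8 embryonic stem cell markers were expressed, with Pou5f1 at 1224 TPM in wild-type and 1123 TPM in Y347A cells, and their summed level was 3116 to 3331 TPM in wild-type and 2735 to 3046 TPM in Y347A libraries. Of these markers Nanog fell from 543 to 339 TPM (adjusted p = 0.00674) and Zfp42 from 361 to 257 TPM (adjusted p = 0.0419), while Tdgf1 rose from 421 to 516 TPM (adjusted p = 0.0269) and Esrrb from 247 to 299 TPM (adjusted p = 0.0365). Over 11 alternatives the call was lost in 8 for Zfp42, 7 for Esrrb, 6 for Tdgf1 and 1 for Nanog. Of 14 germ cell markers, 9 had a mean of at least 1 TPM, and the sperm protamines Prm1 and Prm2 were at 0 in every library. The summed germ cell level was 57.8 to 67.8 TPM in wild-type and 44.1 to 53.8 TPM in Y347A libraries. Dazl had the largest fall in TPM (16.4 and 5.03 TPM, adjusted p = 0.00508). It was the only 1 of the 9 tested germ cell markers that was called, and 3 of the 9 estimates were above 0. Fibroblast feeder markers summed to 110 to 131 TPM in wild-type and 122 to 199 TPM in Y347A libraries, with 2 of 8 at a mean of at least 1 TPM, nearly all of it Vim, and Dcn and Postn at 0. Markers of the rare 2-cell-like state summed to 3.28 to 4.94 TPM in wild-type and 0.82 to 3.06 TPM in Y347A libraries, with 1 of 7 at a mean of at least 1 TPM. The stem cell, germ cell and 2-cell-like sums were lower in every Y347A library, while the feeder sums overlapped and Vim was not called (adjusted p = 0.210); their part in the values of the cohesin genes was not tested. In bulk RNA, fewer cells of a type and less RNA per cell cannot be told apart.

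The promoter stretches of the 4 genes are shown because the genes differed in direction and level while sharing a function, and because E2F-type sites and CpG content are the features through which PRC1.6 and DNA methylation are known to act on germline promoters. Each line gives 120 bases around the RefSeq start (GRCm38.p6, 110 bases before it and 10 from it on), 5′ to 3′ on the gene's strand. GENCODE places the first start of Stag3 and Rec8 further upstream, before the printed stretch of each. For Stag3 it lies before the whole window of 300 bases searched below. Capitals mark TTCCCGC (the E2F-type sequence) in Stag3 and Smc1b and, in Smc1b, CTGAGG, the reverse complement of CCTCAG (the core of the sequence bound by the meiotic activator STRA8). The Stag3 stretch is chr5:138280399-138280518 (plus strand), the Rec8 stretch chr14:55618056-55618175 (plus strand), the Smc1b stretch chr15:85131948-85132067 (minus strand) and the Rad21l stretch chr2:151668524-151668643 (minus strand).
Stag3: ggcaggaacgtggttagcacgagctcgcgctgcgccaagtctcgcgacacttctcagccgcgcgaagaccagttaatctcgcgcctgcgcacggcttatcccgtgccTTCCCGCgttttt
Rec8: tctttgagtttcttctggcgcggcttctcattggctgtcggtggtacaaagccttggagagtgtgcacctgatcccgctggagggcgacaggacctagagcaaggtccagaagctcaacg
Smc1b: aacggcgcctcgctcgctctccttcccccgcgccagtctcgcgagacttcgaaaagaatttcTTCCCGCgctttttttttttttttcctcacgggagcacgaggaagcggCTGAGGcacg
Rad21l: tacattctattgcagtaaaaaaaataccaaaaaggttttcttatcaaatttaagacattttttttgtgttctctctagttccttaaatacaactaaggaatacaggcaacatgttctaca

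All motifs were searched on both strands of the RefSeq window of 300 bases (250 before the start and 50 from it on), where positions count from 1 at the start and from -1 just before it. TTCCCGC lay at -3 to 4 in Stag3 and at -48 to -42 in Smc1b, and it occurred in 4.6% of all 32851 windows. Stag1 held it at -16 to -10 and Smc1a at 39 to 45, so it was not limited to meiotic paralogues. CACGTG, the E-box read by MGA-MAX, lay at -170 to -165 in Stag3, outside the printed stretch, and occurred in 7.15% of windows. CCTCAG matched at 1 to 6 in Smc1b and in 26.8% of windows. None of the 3 sequences was in the Rec8, Rad21l or Smc3 window, and the windows of Stag2 and Rad21 were not analysed here. Stag3 had 30 CpG dinucleotides in 300 bases, Smc1b 29 and Rec8 18, more than 88.3%, 87.1% and 70.3% of windows. Rad21l had 2 CpG dinucleotides and a GC content of 29.0%, against 61.3% in Stag3, 60.0% in Smc1b and 58.3% in Rec8. The order of CpG counts was not that of levels, since Rec8 was more abundant than Smc1b in both genotypes. A match or its lack is a description of letters, not of binding.

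Stag3, the STAG subunit of meiotic cohesin (ENSMUSG00000036928.14, mm10 chr5:138280240-138312393, plus strand), was the most abundant of the 4. Its TPM was 38.4 and 35.1 in the libraries of wild-type set 1 and 32.3 and 27.2 in those of wild-type set 2. In Y347A cells set 1 gave 76.7 and 72.5 TPM, set 2 gave 51.8 and 61.6 TPM, and set 3 gave 72.9 and 71.2 TPM. Every Y347A library lay above every wild-type library, and Y347A set 2 was the lowest of the 3 mutant sets. The means were 33.2 ± 4.91 TPM in wild-type and 67.8 ± 9.66 TPM in Y347A cells, a log2 fold change of 1.004 ± 0.14, which ranked 125 from the top among the 12797 tested genes. The wild-type level exceeded that of 70.5% of tested genes, so Stag3 was already well expressed in wild-type stem cells.

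Rec8, the meiotic kleisin that separase cuts to release chromosomes (ENSMUSG00000002324.8, mm10 chr14:55618037-55625395, plus strand), was scarcer. Its TPM was 4.76 and 4.86 in wild-type set 1 and 6.52 and 6.04 in wild-type set 2. In Y347A cells set 1 gave 9.47 and 9.18 TPM, set 2 gave 10.1 and 9.53 TPM, and set 3 gave 13.2 and 11.9 TPM. The genotypes did not overlap, and Y347A set 3, not set 1, was highest. The means were 5.55 ± 1.04 TPM in wild-type and 10.5 ± 1.71 TPM in Y347A cells, with a log2 fold change of 0.82 ± 0.16 at rank 257 from the top.

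Smc1b, which encodes the meiotic SMC1-beta arm of the ring (ENSMUSG00000022432.7, mm10 chr15:85064689-85131964, minus strand), went the other way. Its TPM was 3.76 and 4.55 in wild-type set 1 and 3.92 and 3.53 in wild-type set 2. In Y347A cells set 1 gave 1.64 and 1.97 TPM, set 2 gave 1.17 and 1.06 TPM, and set 3 gave 3.33 and 1.55 TPM. All Y347A libraries lay below all wild-type libraries, but 1 library of Y347A set 3 came close to them and lay well above its partner. The means were 3.94 ± 0.304 TPM in wild-type and 1.79 ± 0.663 TPM in Y347A cells, with a log2 fold change of -0.87 ± 0.21 (-1.19 with a pseudocount of 0.1 in place of 1) at rank 328 from the bottom.

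Rad21l, the other meiotic kleisin (ENSMUSG00000074704.9, mm10 chr2:151645404-151668533, minus strand), was listed at 0 TPM in all 4 wild-type libraries and in 5 of 6 Y347A libraries. The remaining library, Y347A set 1 library 1, had 0.04 TPM. It was not tested. In wild-type cells the order of levels was Stag3, Rec8, Smc1b and Rad21l, and no library range overlapped its neighbour's. The 3 genes in the fit all passed the threshold of the fit and were non-overlapping by library, where 17.5% of all tested genes passed (6.97% higher and 10.5% lower) and 31.8% did not overlap (12.4% above and 19.4% below). These counts restate how the genes were chosen.

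**Figure D1:**
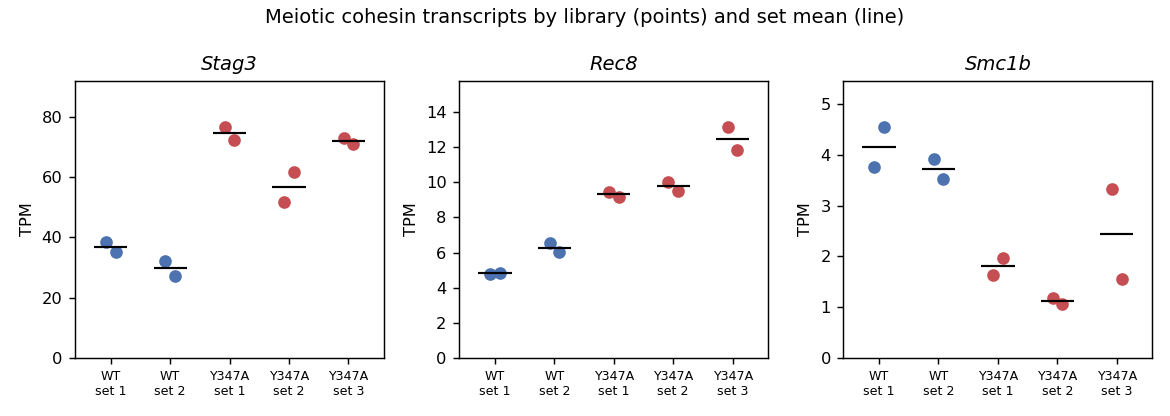
TPM of Stag3, Rec8 and Smc1b in each of the 10 libraries (points; blue wild type, red Y347A), grouped by set, with the set mean as a line. Y347A libraries lie at 51.8 to 76.7 TPM for Stag3 against 27.2 to 38.4 TPM in wild type, at 9.18 to 13.2 against 4.76 to 6.52 TPM for Rec8, and at 1.06 to 3.33 against 3.53 to 4.55 TPM for Smc1b.

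Differences between sets of one genotype were tested over all 10 libraries, with the sets as 5 groups. The genes were chosen for the genotype difference, not for these. Spread within a genotype is the error of that contrast, so the choice can favour genes with small set differences. These tests are thus not independent of the choice. Between the wild-type sets, Stag3 was lower in set 2 by a log2 difference of -0.30 ± 0.10 (adjusted p = 0.160), Rec8 was higher in set 2 by 0.32 ± 0.08 (adjusted p = 0.0809) and Smc1b differed by -0.12 ± 0.23 (adjusted p = 0.813). By limma 0 of the 3 passed, 2 had an unadjusted p under 0.05, and 2.75% of all tested genes passed. Among the 3 Y347A sets, Rec8 differed (F test, adjusted p = 0.0270), with set 3 above set 1 by 0.39 and above set 2 by 0.32 on the log2 scale. Stag3 also passed (adjusted p = 0.0488), with set 2 below set 1 by -0.39 and set 3 above set 2 by 0.34. Smc1b did not pass (adjusted p = 0.156), though set 3 lay 0.65 above set 2. The share of all tested genes that passed among Y347A sets was 19.6%.

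Both calls among Y347A sets were lost when some single libraries were left out. For Stag3 these included either library of wild-type set 1, a set that is not part of that comparison. Stag3 kept its call only when a library of wild-type set 2 was the one left out, and Rec8 lost its call without Y347A set 1 library 2 or without any library of Y347A sets 2 and 3. The adjusted p of Stag3 was 0.232 without Y347A set 2 library 1 and that of Rec8 was 0.147 without Y347A set 3 library 1, while that of Smc1b became 0.0278 without Y347A set 3 library 2. The sets that were high thus differed between the genes, with set 2 lowest for Stag3 and Smc1b and set 3 highest for Rec8 and Smc1b by set mean. A pair of mitotic subunits also varied by set: Smc3 between wild-type sets (-0.19 ± 0.04, adjusted p = 0.0390) and among Y347A sets (adjusted p = 0.00482), and Smc1a among Y347A sets (adjusted p = 0.0143).

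The mitotic core, which every dividing cell uses, was not called in either direction. Rad21, the mitotic kleisin, was at 152 ± 0.937 and 132 ± 3.08 TPM (-0.20 ± 0.06, adjusted p = 0.0738). Stag1 was at 47.4 ± 3.97 and 39.8 ± 0.593 TPM (-0.24 ± 0.08, adjusted p = 0.0842) and Stag2 at 23.9 ± 2.79 and 21.6 ± 2.46 TPM (-0.13 ± 0.12, adjusted p = 0.494). The ring subunits Smc1a, at 75.6 ± 4.98 and 70.6 ± 6.72 TPM (-0.10 ± 0.10, adjusted p = 0.503), and Smc3, at 90.9 ± 8.54 and 85.4 ± 8.85 TPM (-0.09 ± 0.11, adjusted p = 0.573), did not pass either. Every Y347A library lay below every wild-type library for Rad21 (126.11 to 135.65 against 151.11 to 153.43 TPM) and Stag1 (38.3 to 40.84 against 43.63 to 50.53 TPM). That was so for 19.4% of all tested genes, while the libraries of Stag2, Smc1a and Smc3 overlapped. By limma 0 of 5 passed, with 2 (Rad21 and Stag1) at an unadjusted p under 0.05. All 5 estimates were below 0, against 6994 of all 12797 tested genes, although that of Smc3 was 0.0033 without wild-type set 1.

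Since TPM is per length, each meiotic subunit can be given as a share of its family's transcripts, as a description. Stag3 made up 31.8 ± 1.15% of STAG transcripts (Stag1, Stag2 and Stag3) in wild-type and 52.2 ± 3.45% in Y347A cells, 20.5 points more. The libraries ranged from 28.3% to 33.9% in wild-type and from 46.1% to 55.5% in Y347A cells, so the groups did not overlap, and Stag3 went from a mean below that of Stag1 to the most abundant STAG transcript by mean level. The summed STAG level was 104 ± 11.7 and 129 ± 10.7 TPM, and that of Stag1 and Stag2 alone 71.2 ± 6.76 and 61.5 ± 1.91 TPM.

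In the other families the meiotic form was a small part. Rec8 and Rad21l together made up 3.52 ± 0.617% of kleisin transcripts in wild-type and 7.35 ± 0.953% in Y347A cells, with libraries at 3.05% to 4.13% and 6.66% to 8.87%. Smc1b made up 4.96 ± 0.0493% of SMC1 transcripts in wild-type and 2.49 ± 0.917% in Y347A cells, with libraries at 4.48% to 5.50% and 1.41% to 4.44%. Neither share exceeded 8.87% in any library, far below that of Stag3. Protein was not measured.

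**Figure D2:**
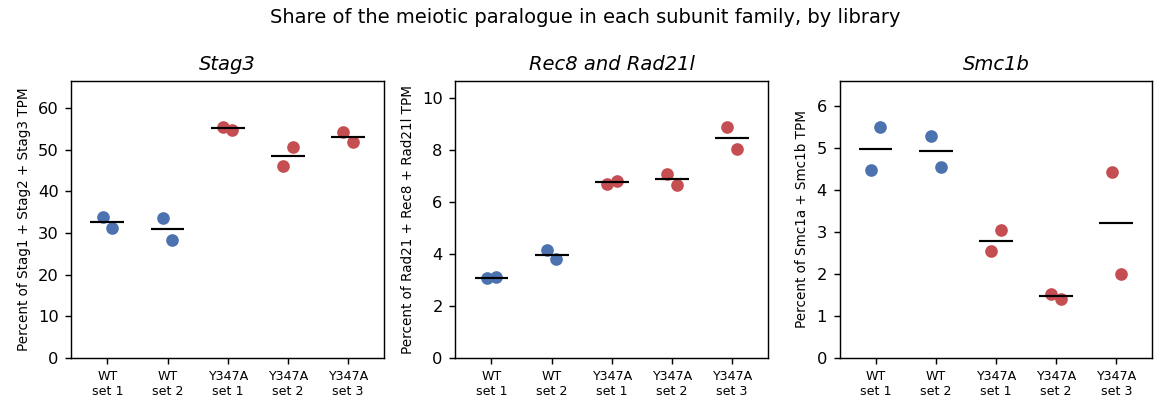
Share of summed TPM held by the meiotic form in each subunit family (percent, vertical axes start at 0), per library (points; blue wild type, red Y347A) with the set mean as a line. Stag3 lies at 28.3% to 33.9% in wild-type and 46.1% to 55.5% in Y347A libraries, while Rec8 with Rad21l and Smc1b reach at most 8.87%.

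The genes that load, release, acetylate, protect or cut cohesin were read together with the mitotic core. Of 25 cohesin genes and regulators other than the meiotic subunits, 23 were tested, 1 rose, 2 fell and 20 were not called (13.0% called, against 17.5% of all tested genes), with a median log2 fold change of -0.10 against -0.04 over all tested genes. Pttg1, the securin that restrains separase, rose from 89.2 ± 2.89 to 132 ± 6.87 TPM (0.56 ± 0.07, adjusted p = 0.00751). Pds5a, a regulator of cohesin release, fell from 123 ± 11.9 to 95.1 ± 5.37 TPM (-0.36 ± 0.09, adjusted p = 0.0354). Sgo2a, the shugoshin that shields REC8 at meiotic centromeres, fell from 42.5 ± 0.233 to 34.2 ± 1.93 TPM (-0.31 ± 0.08, adjusted p = 0.0445). The loader Nipbl was at 17.4 and 14.2 TPM (adjusted p = 0.183), separase (Espl1) at 69.6 and 72.7 TPM (adjusted p = 0.825), and Meikin, a meiotic kinetochore protein, stayed at 0 to 0.09 TPM. Sgo2b, a paralogue of Sgo2a below the filter and not tested, was at 1.55 to 1.97 TPM in wild-type and 0.25 to 0.47 TPM in Y347A libraries. Over 11 alternatives the call was lost in 2 for Pttg1, 7 for Pds5a and 8 for Sgo2a. The counts were 0 and 0 without wild-type set 1 and likewise without wild-type set 2, and 1 instead of 2 fell without Y347A set 1 or set 3.

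Among other meiosis genes more were called lower than higher, although the recombination genes went both ways. Of 45 in the table, 29 were tested, 8 fell, 1 rose and 20 were not called (31% called, against 17.5% of all tested genes), and the median log2 fold change was -0.18. In the list of meiotic entry regulators 2 of 6 tested genes fell. Dazl, an RNA-binding protein that licenses germ cells for meiosis, fell from 16.4 ± 4.45 to 5.03 ± 0.149 TPM (-1.51 ± 0.16, adjusted p = 0.00508), and Meioc, which keeps cells in meiotic prophase, fell from 6.73 ± 0.647 to 2.80 ± 0.882 TPM (-1.05 ± 0.21, adjusted p = 0.0223). Stra8, the retinoic acid target that starts meiosis, was at 4.29 ± 1.67 and 5.78 ± 2.24 TPM (0.34 ± 0.30, adjusted p = 0.449).

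Among 12 tested genes of the chromosome axis and synaptonemal complex, the structures built on meiotic cohesin, 2 fell, none rose by limma (0 with an estimate above 0 had an unadjusted p under 0.05), and 10 estimates were below 0. Over all tested genes, 6994 of 12797 estimates were below 0. Hormad2 fell from 14.3 ± 0.329 to 8.56 ± 1.34 TPM (-0.69 ± 0.14, adjusted p = 0.0215) and Hormad1 from 15.7 ± 1.91 to 10.01 ± 1.97 TPM (-0.61 ± 0.16, adjusted p = 0.0426). Both encode HORMA-domain proteins of the unsynapsed axis. Sycp3, the main axis component, was at 8.02 ± 4.66 and 4.54 ± 1.18 TPM (adjusted p = 0.223), and Sycp1, the transverse filament, at 7.19 ± 2.47 and 6.77 ± 1.33 TPM (adjusted p = 0.876).

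Of 11 tested recombination genes, 4 fell and 1 rose. Their median log2 fold change was 0.01, with 6 estimates above 0 and 5 below. At an unadjusted p under 0.05 in the limma fit, 3 were higher and 4 lower. Prdm9 was at 2.335 and 3.97 TPM (0.55 ± 0.18, adjusted p = 0.0714) and Mnd1 at 54.0 and 67.2 TPM (0.31 ± 0.13, adjusted p = 0.141). Rec114 and Mei4 encode partners needed for meiotic double-strand breaks. Rec114 fell from 30.5 ± 6.49 to 11.9 ± 1.27 TPM (-1.29 ± 0.15, adjusted p = 0.00617), and Mei4 from 2.20 ± 0.0318 to 0.845 ± 0.312 TPM (-0.81 ± 0.20, adjusted p = 0.0376). Dmc1, the meiosis-specific recombinase, was at 11.3 ± 0.849 and 12.6 ± 2.63 TPM (adjusted p = 0.608), and Spo11, which cuts the DNA, stayed at 0 to 0.09 TPM. Leaving out wild-type set 1 or 2 left 2 or 1 meiosis genes that fell, and leaving out Y347A set 1 or 3 left 4 or 5. Over 11 alternatives Dazl kept its call in all, Rec114 lost it without wild-type set 2 (adjusted p = 0.0581), Hormad1 lost it in 6 and Hormad2 in 4. Over the 10 alternatives in which they were tested, Mei4 lost its call in 7 and Meioc in 4.

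**Figure D3:**
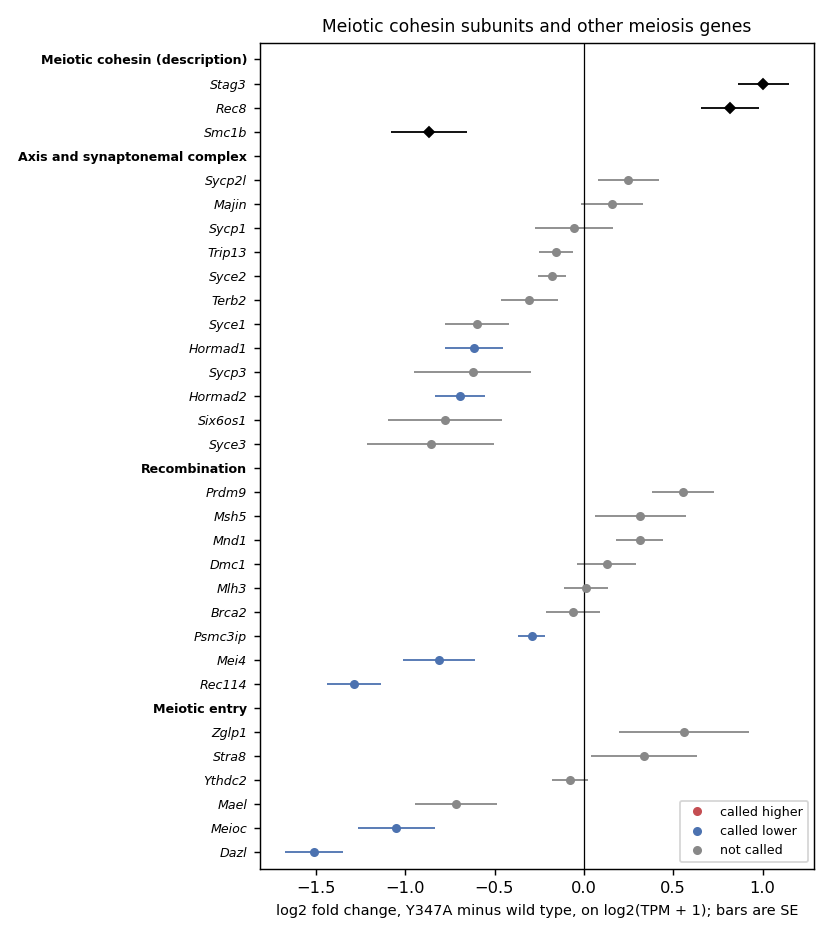
Log2 fold change (Y347A minus wild type, on log2(TPM + 1); bars are SE) of the 3 meiotic cohesin genes in the fit (black diamonds, a description with no test) and of 27 other tested meiosis genes, in blocks by role. Stag3 (1.004) and Rec8 (0.82) lie to the right of every other gene drawn, and of the genes called lower Dazl (-1.51) and Rec114 (-1.29) lie furthest left.

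Germline genes of stem cells are held down by PRC1.6 and by DNA and H3K9 methylation, so the genes of these systems were read next. Of 25 repressor genes, all tested, 7 fell and none rose by limma, with 1 (Dnmt3l) above 0 at an unadjusted p under 0.05 (28% called, against 17.5% of all tested genes), and the median log2 fold change was -0.26. In the E2F6 and PRC1.6 list, 6 of 15 fell. Pcgf6, the subunit that defines PRC1.6, fell from 64.2 ± 1.38 to 44.9 ± 2.13 TPM (-0.51 ± 0.08, adjusted p = 0.0106), and the HP1 proteins Cbx1 and Cbx3 fell from 192 ± 14.2 to 139 ± 7.82 TPM (adjusted p = 0.0156) and from 337 ± 6.68 to 271 ± 13.2 TPM (adjusted p = 0.0243). The deacetylase Hdac1 fell from 214 ± 5.44 to 173 ± 13.6 TPM (adjusted p = 0.0450). E2f6 was at 11.5 ± 0.0283 and 11.8 ± 1.30 TPM (0.03 ± 0.12, adjusted p = 0.877) and Mga at 55.9 ± 10.7 and 46.0 ± 5.24 TPM (adjusted p = 0.219).

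Of 10 DNA and H3K9 methylation genes 1 fell. This was Dnmt3a, a de novo methyltransferase, from 8.19 ± 1.04 to 3.68 ± 1.001 TPM (-0.99 ± 0.20, adjusted p = 0.0219). Its cofactor Dnmt3l was at 110 ± 33.0 and 175 ± 37.4 TPM (0.68 ± 0.22, adjusted p = 0.0800), and the maintenance enzyme Dnmt1 at 109 ± 3.68 and 89.4 ± 7.91 TPM (adjusted p = 0.0739). The 7 repressor genes that fell became 4 after median-of-ratios rescaling, 3 after quantile normalization, 0 without either wild-type set, 2 without Y347A set 1 and 3 without Y347A set 3. Of 11 alternatives, the call was lost in 3 for Pcgf6, 4 for Cbx1, 4 for Dnmt3a, 7 for Cbx3 and 8 for Hdac1. Whether any of these levels bears on Stag3, Rec8 or Smc1b was not tested.

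**Figure D4:**
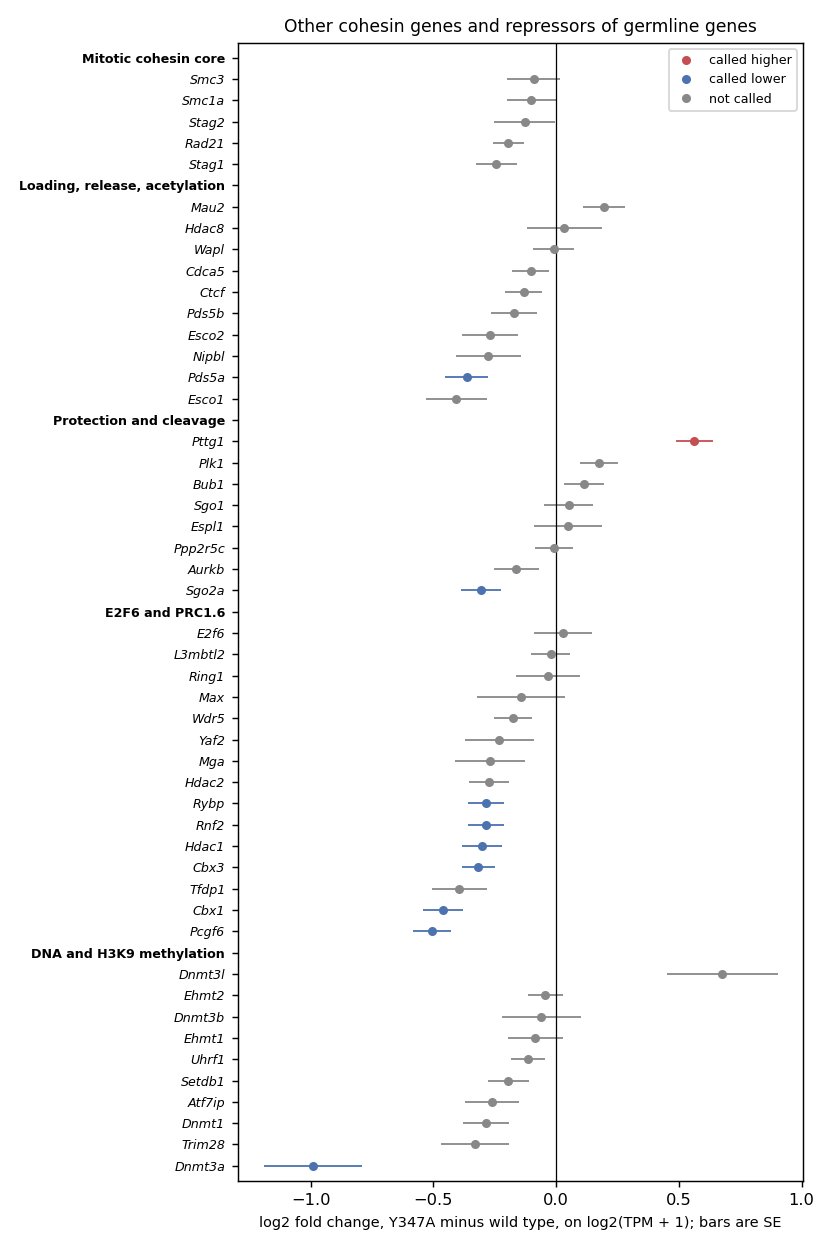
Log2 fold change (Y347A minus wild type, on log2(TPM + 1); bars are SE) of 23 tested cohesin genes and regulators and 25 repressor genes, coloured by call at an adjusted p under 0.05. Of the genes called, Pttg1 (0.56) is the one to the right of 0, and Dnmt3a (-0.99) and Pcgf6 (-0.51) lie furthest left.

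Genes beside the meiotic cohesin genes were read for level changes along the chromosome. Gpc2, which starts 234 bases from Stag3 on the other strand, was at 7.80 and 10.1 TPM (0.33 ± 0.12, adjusted p = 0.1001), and the nearest tested locus on the other side, the pseudogene Got2-ps1, did not pass (0.03, adjusted p = 0.924). Ipo4, which ends 4 bases from the end of Rec8, was at 22.7 and 25.5 TPM (0.15 ± 0.09, adjusted p = 0.301), and Irf9, 8006 bases upstream of Rec8, did not pass (0.04, adjusted p = 0.844). Reads that run past either end of the Rec8 and Ipo4 pair cannot be assigned without strand, and no strand setting was found in these sources. Fam118a, 1858 bases past the end of Smc1b, did not pass (-0.07, adjusted p = 0.767). Fbln1, the nearest tested gene beyond its start at 73984 bases, rose from 19.6 to 29.8 TPM (0.58 ± 0.08, adjusted p = 0.0103), opposite in direction to Smc1b. Ribc2, whose annotated start lies 113 bases from that of Smc1b, stayed at 0 to 0.29 TPM, and Gm10923, a pseudogene inside Smc1b, at 0 to 0.90 TPM. Around Rad21l, Sdcbp2 (-0.10, adjusted p = 0.701) and Psmf1 (0.02, adjusted p = 0.909) did not pass.

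The genes whose pattern over the 10 libraries lay nearest to each member were found by the mean absolute difference of log2 profiles centred on their own means, among 11297 named genes. The profiles span both genotypes, so nearness includes the genotype difference for which the members were chosen. Nearest to Stag3 were Fam241b at 0.0890, Bmp7, a bone morphogenetic protein, at 0.0923, and Uap1l1 at 0.0925. Nearest to Rec8 were Arhgef17 at 0.0878, Trim56 at 0.0990 and Gsto1 at 0.110, and the 3 nearest to Smc1b included Crxos at 0.139 and Mypn at 0.149. The distances were larger for Smc1b, the gene whose libraries of Y347A set 3 differed most from each other.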

How the data were processed

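The authors deposited 1 TPM value for each gene in each library. The submitters' processing notes name Trim Galore, STAR, RSEM and DESeq2 and the build mm10, without versions, strand mode or annotation. TPM has a fixed total per library, so depth and counting error are unknown, no count test was run, and a transcript can move because others do. Column names matched all 10 samples, and 0 columns were left over.

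Members and gene lists were chosen with earlier results of these data known. TPM plus 1 was taken to log2 for genes whose mean reached 1 TPM. Set means (2 wild-type, 3 Y347A) were compared in limma 3.58.1 (R 4.3.3, eBayes with trend, two-sided tests), with 3 residual degrees of freedom and 4.01 from the prior. Sets within a genotype were compared in a fit of 5 sets over 10 libraries (5 residual and 2.86 prior degrees of freedom). Benjamini-Hochberg adjustment ran across every tested gene, with a threshold of 0.05. Named genes were the members, the mitotic core, per list up to 4 called genes with the greatest change (without calls, the 2 with the lowest p), the nearest tested gene on each side, any overlapping gene, and the 3 nearest profiles; other genes given were chosen after their values were seen. Of the genes this rule names, 3 are not reported here, though the counts include them. Of the listed symbols 4 matched through a RefSeq synonym and 1 did not match. Positions come from GENCODE M21 on GRCm38 (55141 of 55401 identifiers matched) and promoters from RefSeq on GRCm38.p6. The alternatives tried were a smaller pseudocount (0.1), filters at 0 and 5 TPM, median-of-ratios and quantile rescaling, libraries as units, set or replicate number as a block, and leaving out each set or library. Figures were drawn with matplotlib 3.10.9.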

Additional observations from a re-analysis of the deposited data

Results flagged for a closer look

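Rad21l was listed at 0.04 TPM in Y347A set 1 library 1 and at 0 in the other 5 Y347A libraries, which makes that library stand apart by construction. Pds5a, the cohesin release regulator, was at 82.5 TPM in Y347A set 1 library 2, below the 95.5 to 102 TPM of the other 5 Y347A libraries. Over 63 gene or share groups examined, 2 such samples were found, and chance gives about 1 in 20 groups. Their causes were not tested.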

How the results depend on the processing

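Of 255 values recomputed under alternatives, 193 were kept and 0 reversed. For values other than counts, kept means the same direction and side of the threshold, or a move of less than 1 SD. Counts of called genes have no SD and cannot reverse. For them a limited change was kept: 10 in place of 7 repressor genes called lower was kept, and 4 was not. Libraries as units and replicate number as a block return the main log2 fold changes by construction. Leaving out single sets or libraries, the log2 fold change lay between 0.86 and 1.15 for Stag3, between 0.65 and 0.98 for Rec8 and between -1.02 and -0.69 for Smc1b, which was -1.19 with a pseudocount of 0.1. Smc1b has no value at a mean of at least 5 TPM, since it falls below that filter. The F test among Y347A sets gave Stag3 an adjusted p of 0.118 with no filter, 0.0530 after median-of-ratios rescaling and 0.0453 to 0.232 without single libraries. Rec8 gave 0.0534 with no filter and 0.0384 to 0.147 without single libraries, and Smc1b 0.0278 to 0.353. A set left with 1 library was assumed to vary like the others.

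With no filter (26268 genes tested) the calls were 250 higher and 559 lower over all genes, 1 lower for other cohesin genes, 0 higher and 2 lower for other meiosis genes and 1 lower for repressors. Quantile normalization gave 0 lower for cohesin, 2 higher for meiosis and 3 lower for repressors, and median-of-ratios rescaling 4 lower for repressors. Without single sets the calls ranged from 38 to 1063 higher and 59 to 1458 lower over all genes, 0 to 1 higher and 0 to 2 lower for cohesin, 0 to 2 higher and 1 to 7 lower for meiosis, and 0 to 10 lower for repressors. Fewer sets leave fewer degrees of freedom; other causes were not tested.

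Whether sets of the same number belong together is not in the labels. Deviations of same-numbered sets from their genotype mean correlated at -0.16 (sets 1) and -0.09 (sets 2). The deviations of the 2 wild-type sets mirror each other, so these values cannot decide whether sets were paired. With set number as a replicate block the log2 fold changes were 0.96 for Stag3, 0.70 for Rec8 and -1.02 for Smc1b. These equal the estimates without Y347A set 3, since no wild-type set has that number. The calls with this block were 209 higher and 362 lower over all genes. They were 0 lower for cohesin, 0 higher and 3 lower for meiosis and 1 lower for repressors. With the replicate number as a block the F test of Stag3 had an adjusted p of 0.0683. Depth is unknown, so low genes such as Smc1b and Rad21l carry an unknown counting error.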

Other observations

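Low germline transcripts outside the tests moved in both directions; they were chosen after their values were seen. Figla, an oocyte transcription factor, was listed at 0 in all 4 wild-type libraries and at 0.12 to 0.47 TPM in the 6 Y347A libraries. Spata22, a meiotic recombination gene, was at 0.95 to 1.95 TPM in wild-type and 0.19 to 0.71 TPM in Y347A libraries. Tex101, a germ cell surface protein, was at 0.50 to 0.69 TPM in wild-type and 0.72 to 1.40 TPM in Y347A libraries. Their libraries did not overlap between genotypes, and none had a mean of at least 1 TPM over all 10 libraries. The share of genes without overlap was not computed below that mean. Other low germline genes, such as Tex12, Meiob and Hfm1, did overlap between genotypes.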
